A study of Homo sapiens with 6 samples.

Results

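The phosphofructokinases PFKL, PFKM and PFKP, the bifunctional enzymes PFKFB1 to PFKFB4, and the opposing phosphatases FBP1 and TIGAR were examined in a human hepatocellular carcinoma line, SNU-368, whose cells carried a short hairpin RNA against the mitochondrial transcription factor TFAM. The 9 genes were found by symbol, 1 row each, in a table of 60612 gene rows, and 7 of them were expressed highly enough to be tested. Levels are given as FPKM, which divides fragments by gene length and library size, and differences as log2 fold changes of the TFAM hairpin (shTFAM) against a control hairpin (shCtrl). The fold changes were fitted to counts with TMM scaling factors and so need not equal ratios of mean FPKM. In shTFAM libraries PFKFB4, PFKP, PFKFB2 and PFKL rose and TIGAR fell at an adjusted p of at most 0.05. Those are 4 higher and 1 lower of 7, where 11.3% of the 14708 tested rows rose and 6.59% fell (17.9% in all). Over all rows that balance moved with the scaling: 1661 rows were called higher and 969 lower with TMM factors, 1353 and 1266 with library totals alone, and 1198 and 1771 with totals outside mitochondrial DNA. The 5 calls among these genes held under both other scalings. PFKM and PFKFB3 did not pass, PFKFB1 was too low to test, and FBP1 had 0 counts in every library. The median log2 fold change of the 7 was 0.83, beside -0.02 over all tested rows.

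Phosphofructokinase adds a phosphate to fructose 6-phosphate and is the committed, regulated step of glycolysis. PFKL, PFKM and PFKP are its liver, muscle and platelet isozymes. The 4 PFKFB enzymes have a kinase that makes fructose 2,6-bisphosphate, a strong activator of phosphofructokinase, and a phosphatase that removes it, in a balance that differs between isozymes. FBP1, fructose-1,6-bisphosphatase, runs the step backwards in gluconeogenesis and is abundant in normal liver. TIGAR, a p53-inducible phosphatase, breaks down fructose 2,6-bisphosphate.

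The series holds 6 poly(A) RNA libraries, 3 of cells with a control hairpin (shCtrl) and 3 of cells with the TFAM hairpin (shTFAM), all from the same parental line. The design text counts the 6 samples as cell lines. How many hairpin sequences were used, what drove them and whether each line was a clone or a separate culture is not given in the labels, and the p-values reflect only library-to-library spread, which may be technical. Libraries held 43286024 to 61058282 counts, the deepest being shTFAM 3. The target gene TFAM was lower in all 3 shTFAM libraries, at 13.5 ± 1.21 FPKM in shCtrl, against 9.57 ± 0.950 in shTFAM (SD, n = 3 each). The fitted change of TFAM was -0.42 on the log2 scale (SE 0.107 with edgeR, adjusted p of 0.0377). Its call ended when any 1 library was left out (edgeR adjusted p 0.0676 to 0.0948). On the second principal component (15.3% of variance) shCtrl 3 lay away from shCtrl 1 and shCtrl 2. Of 13 hepatocyte and liver cancer markers, 7 were at 0 counts in every library, among them albumin (ALB) and alpha-fetoprotein (AFP), whereas the keratins KRT8 and KRT18 were at 79.5 ± 8.51 and 174 ± 22.4 FPKM in shCtrl (SD, n = 3 each). These defining liver markers were thus not detected. Markers of other cell types also moved, where 11.3% of all tested rows rose. Of 6 tested fibroblast and stellate markers 3 rose (DCN, PDGFRB and THY1). COL1A1, LUM and ACTA2 did not pass, and COL1A2 and PDGFRA were at 0. DCN was high enough to be tested only through its shTFAM libraries (0.201 ± 0.0715 FPKM in shCtrl, 1.48 ± 0.327 in shTFAM, SD, n = 3 each). The summed level of all 8 went from 30.5 to 44.7 FPKM in shCtrl to 53.1 to 58.1 in shTFAM. Of the leukocyte markers, CD68 rose from 5.49 ± 1.19 to 13.9 ± 2.77 FPKM (SD, n = 3 each), with PTPRC, CD3E and LYZ at 0. Of 2 tested biliary markers none passed in edgeR (1 higher at an unadjusted p under 0.05), and DESeq2 called 1 higher. The summed level of all 5 was 79.0 to 144 FPKM in shCtrl and 145 to 230 in shTFAM. Nearly all of it was the keratin KRT7, at 113 ± 33.1 and 177 ± 45.7 FPKM (SD, n = 3 each). EPCAM, SOX9 and SPP1 were too low to test, and EPCAM and SPP1 had lower means in shTFAM. The part of these cells or genes in the results was not tested, and more cells of a type cannot be told apart from more RNA per cell.

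Sequences upstream of a RefSeq transcription start are shown for 4 of the 5 genes that changed. These are the largest rise (PFKFB4), the rises of the phosphofructokinases PFKL and PFKP, and the fall of TIGAR. PFKFB2 was not among the 8 of 9 genes matched in the RefSeq promoter table (GRCh38.p14). Each run is the longest stretch free of annotated exons within 250 bases before a RefSeq start. The PFKFB4, PFKP and TIGAR runs lie inside the annotated span of their own gene, and the PFKL run just before its span. Capitals mark the hypoxia-response core, searched as ACGTG and GCGTG on both strands, where the 2 strands' matches can overlap. The PFKFB4 run is chr3:48556924-48556982 (minus strand), that of PFKL chr21:44299803-44300050 (plus), that of TIGAR chr12:4320963-4321204 (plus), and that of PFKP chr10:3068939-3069188 (plus), at 1 of the 2 PFKP starts, of 4, whose windows hold the core.
PFKFB4: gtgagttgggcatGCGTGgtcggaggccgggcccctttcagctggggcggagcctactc
PFKL: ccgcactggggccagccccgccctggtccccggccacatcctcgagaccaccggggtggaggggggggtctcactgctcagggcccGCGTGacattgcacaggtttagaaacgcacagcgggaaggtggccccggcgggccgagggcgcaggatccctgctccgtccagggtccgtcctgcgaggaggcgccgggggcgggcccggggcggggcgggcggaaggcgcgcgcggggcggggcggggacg
PFKP: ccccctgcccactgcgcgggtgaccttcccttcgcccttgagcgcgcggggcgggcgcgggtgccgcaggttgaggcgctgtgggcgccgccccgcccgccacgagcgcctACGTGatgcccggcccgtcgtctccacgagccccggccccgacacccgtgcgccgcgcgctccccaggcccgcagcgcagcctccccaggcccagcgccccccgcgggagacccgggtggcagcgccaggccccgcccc
TIGAR: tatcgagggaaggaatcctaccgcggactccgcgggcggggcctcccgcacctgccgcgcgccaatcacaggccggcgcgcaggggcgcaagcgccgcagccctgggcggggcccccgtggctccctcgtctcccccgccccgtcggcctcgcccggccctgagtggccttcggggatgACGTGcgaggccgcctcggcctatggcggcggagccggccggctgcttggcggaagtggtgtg
The first base of the match lay 166 bases before the start in PFKFB4, 164 in PFKL, 139 in PFKP and 71 in TIGAR. The core was thus present before a RefSeq start of a gene that fell as well as of genes that rose. Of the 19 full windows of these genes, 9 held it (47.4%), beside 43.2% of all 35116 RefSeq windows of the same length. Counted by gene, 7 of the 8 matched genes held it in at least 1 window, beside 47.4% of all 27305 genes in the table. Several of the 8 have more than 1 window, and most of the PFKM windows overlap one another. FBP1, at 0 counts, held it as well, and PFKFB1 did not in these windows. A match describes letters only.

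Among the phosphofructokinases, PFKP, the isozyme with the highest level, rose. PFKP (ENSG00000067057, chromosome 10, 3066333 to 3137715, plus strand, hg38) stood at 34.7, 30.8 and 35.3 FPKM in shCtrl 1 to 3 and at 51.7, 56.2 and 62.7 FPKM in shTFAM 1 to 3. Every shTFAM library was above every shCtrl library. Its mean went from 33.6 ± 2.45 to 56.8 ± 5.53 FPKM (SD, n = 3 each). The change fitted to counts with TMM factors was 0.84 on the log2 scale (SE 0.118 with edgeR, adjusted p of 0.00594), or 1.80-fold. With library totals alone, closer to the scaling of FPKM, the fitted change was 0.77.

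PFKL, the liver isozyme, rose by a similar amount. PFKL (ENSG00000141959, chromosome 21, 44300051 to 44327376, plus strand) was at 21.9, 20.6 and 17.4 FPKM in shCtrl 1 to 3 and at 30.0, 29.1 and 39.5 FPKM in shTFAM 1 to 3. The groups did not overlap, and shTFAM 3 was the highest. The fitted change was 0.81 on the log2 scale (SE 0.165; edgeR, adjusted p of 0.0198), or 1.75-fold. Leaving out shCtrl 2 ended the call (0.84, edgeR adjusted p 0.0571). Leaving out shCtrl 3 together with shTFAM 3 gave 0.53 (edgeR adjusted p 0.0156).

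PFKM, the muscle isozyme, did not pass. PFKM (ENSG00000152556, chromosome 12, 48105139 to 48146404, plus strand) was at 28.01, 27.9 and 29.3 FPKM in shCtrl 1 to 3 and at 26.8, 23.7 and 25.3 FPKM in shTFAM 1 to 3. The shTFAM libraries were all slightly below the shCtrl libraries, with a log2 fold change of -0.09 (SE 0.0859; edgeR, adjusted p of 0.516). PFKM shares 941 bases with SENP1 on the other strand, a row with a log2 fold change of -0.06 (edgeR adjusted p 0.801).

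**Figure D1:**
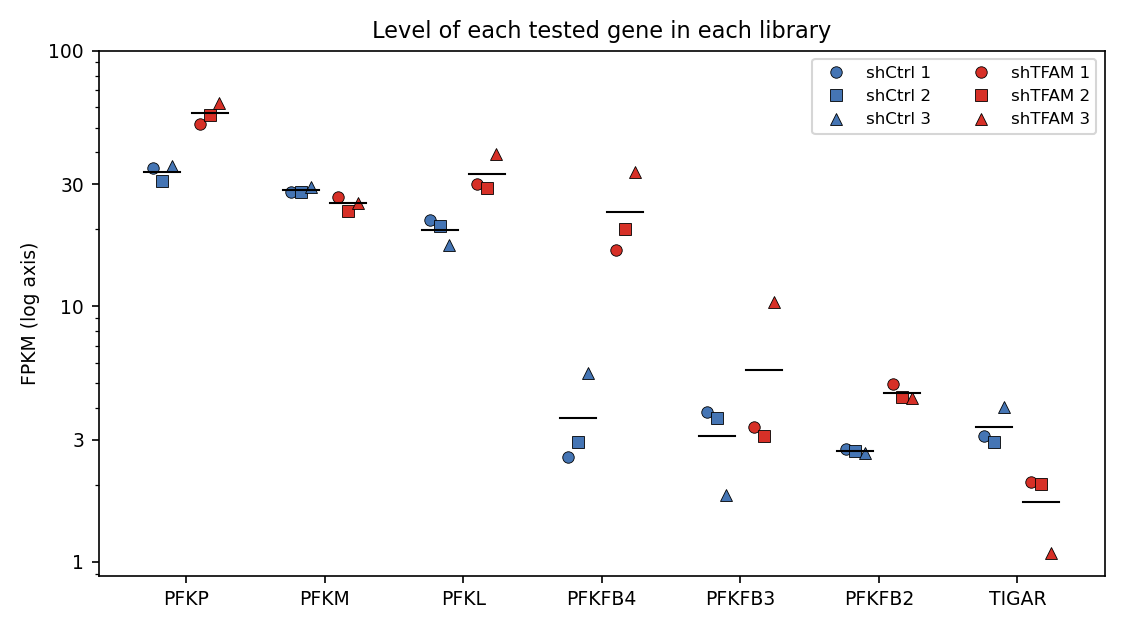
Level of the 7 tested genes in each library, in FPKM on a log axis. Points are libraries, with shCtrl in blue and shTFAM in red, and horizontal lines are group means of 3 libraries. PFKFB4 goes from 2.57 to 5.51 FPKM in shCtrl to 16.6 to 33.5 in shTFAM, TIGAR is lower in each shTFAM library, and only shTFAM 3 is high for PFKFB3.

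The make-up of the phosphofructokinase mRNA pool was compared next, as 2 isozymes rose and PFKM did not pass. Shares of the summed FPKM of the 3 genes within a library do not depend on how libraries are scaled. PFKM made up 33.1, 35.2 and 35.8% of the pool in shCtrl 1 to 3 and 24.7, 21.7 and 19.8% in shTFAM 1 to 3. Its mean share was 34.7 ± 1.37% and 22.1 ± 2.46% (SD, n = 3 per group; by exact permutation, two-sided, p 0.1, which is the lowest it allows). PFKP held 41.0 ± 2.13% in shCtrl and 49.4 ± 1.99% in shTFAM (SD, n = 3 per group; by exact permutation, two-sided, p 0.1). PFKL held 24.3 ± 2.76% and 28.5 ± 2.26% (SD, n = 3 per group; by exact permutation, two-sided, p 0.1), with 26.0% in shCtrl 2 close to 26.7% in shTFAM 2. The groups did not overlap for any of the 3 shares, although the exact permutation test of 3 against 3 libraries cannot go below 0.1. With shCtrl 3 and shTFAM 3 left out, the difference in the PFKL share was 1.26 percentage points, against 4.12 with all libraries.

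In shCtrl the order of levels was PFKP, PFKM, PFKL in every library, and in shTFAM it was PFKP, PFKL, PFKM in every library. The summed level of the 3 genes was 84.5, 79.3 and 82.0 FPKM in shCtrl 1 to 3 and 109, 109 and 128 in shTFAM 1 to 3, or 82.0 ± 2.60 and 115 ± 10.9 (SD, n = 3 per group; by exact permutation, two-sided, p 0.1, which is the lowest it allows), 1.40 times as high.

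**Figure D2:**
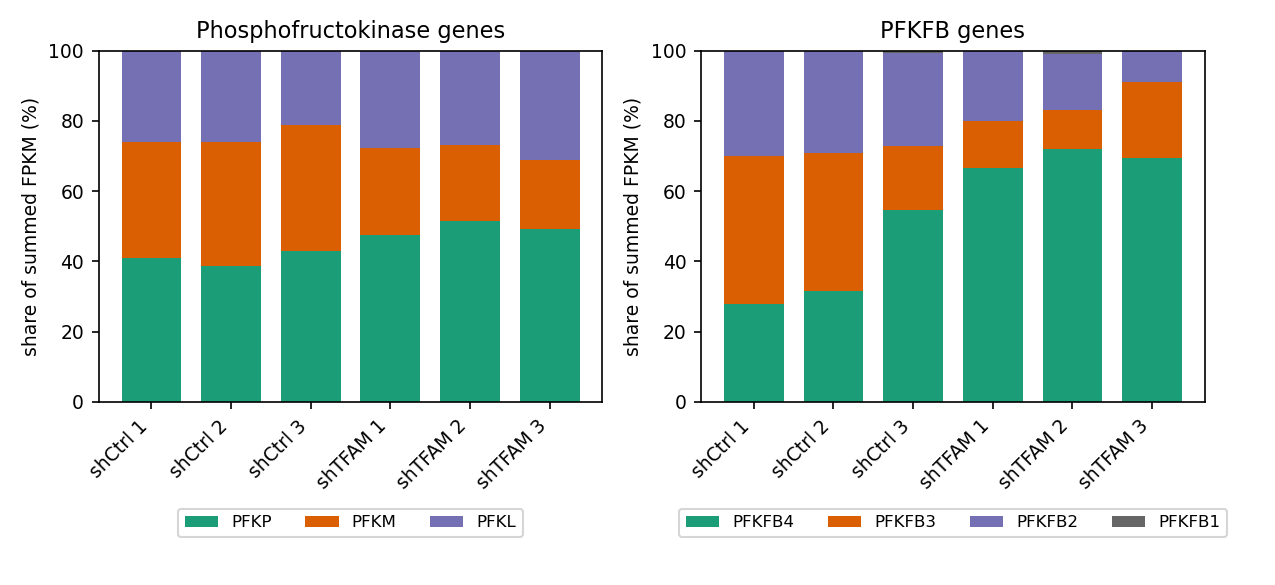
Share of each gene in the summed FPKM of its family, in percent, for each library. The left panel shows the 3 phosphofructokinases and the right panel PFKFB1 to PFKFB4. PFKM takes 33.1 to 35.8% of its family in shCtrl and 19.8 to 24.7% in shTFAM, and PFKFB4 takes 27.9 to 54.7% and 66.5 to 72.0% of its own. PFKFB1, at under 1% in each library, is barely visible at the top.

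PFKFB4 showed the largest fold change of the 7 tested genes. It is a hypoxia-inducible isozyme known from testis and from tumours. PFKFB4 (ENSG00000114268, chromosome 3, 48517684 to 48561972, minus strand) stood at 2.57, 2.94 and 5.51 FPKM in shCtrl 1 to 3 and at 16.6, 20.04 and 33.5 FPKM in shTFAM 1 to 3. The lowest shTFAM library was above the highest shCtrl library, which was shCtrl 3. The fitted change was 2.76 on the log2 scale (SE 0.390; edgeR, adjusted p of 0.00617), 6.79-fold. In shCtrl its mean level exceeded that of 46.4% of tested rows, and in shTFAM that of 89.1%. The call held under each alternative run, with log2 fold changes from 2.38 to 3.16. PFKFB4 overlaps UCN2 by 255 bases on the same strand, a row of 123 to 498 counts beside 802 to 14966 for PFKFB4.

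PFKFB2, the heart isozyme, whose phosphatase and kinase are set by phosphorylation, rose with the smallest SE of the 4 genes that rose. PFKFB2 (ENSG00000123836, chromosome 1, 207034366 to 207081024, plus strand) was at 2.77, 2.72 and 2.66 FPKM in shCtrl 1 to 3 and at 4.98, 4.41 and 4.36 FPKM in shTFAM 1 to 3. Libraries agreed closely within each group. The fitted change was 0.83 on the log2 scale (SE 0.0937; edgeR, adjusted p of 0.00339), 1.78-fold. The gene YOD1 lies within PFKFB2 on the other strand (9132 bases). YOD1 had 2028, 2093 and 2907 counts in shCtrl 1 to 3 and 654, 4210 and 7328 in shTFAM 1 to 3. PFKFB2 had 1441, 1665 and 1540 counts in shCtrl 1 to 3 and 2800, 2444 and 3248 in shTFAM 1 to 3. The library with the lowest YOD1 count, shTFAM 1, had the highest PFKFB2 FPKM, whereas in counts shTFAM 3 was highest for both genes. Whether YOD1 reads were counted for PFKFB2 was not tested.

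PFKFB3, an isozyme with high kinase activity found in proliferating cells, did not pass, and 1 library set its mean. PFKFB3 (ENSG00000170525, chromosome 10, 6144934 to 6254644, plus strand) was at 3.87, 3.67 and 1.82 FPKM in shCtrl 1 to 3 and at 3.37, 3.10 and 10.4 FPKM in shTFAM 1 to 3. The groups overlapped, with shTFAM 1 and shTFAM 2 below shCtrl 1 and shCtrl 2. The log2 fold change of 0.95 (SE 0.532; edgeR, adjusted p of 0.247) became 0.11 without shTFAM 3 (SE 0.328; edgeR, adjusted p of 0.856) and -0.16 with shCtrl 3 and shTFAM 3 both left out (SE 0.106; edgeR, adjusted p of 0.353). In shTFAM 3 TFAM was also lowest, at 8.47 FPKM against 10.1 in each of shTFAM 1 and shTFAM 2, and PFKFB4 was highest. Among the shCtrl libraries, shCtrl 3 had the highest TFAM level, at 14.8 FPKM, and also the highest PFKFB4 level, at 5.51 FPKM. A relation of these genes to the level of TFAM was not tested. PFKFB1, the liver isozyme, was at 0, 0 and 10 counts in shCtrl 1 to 3 and 4, 33 and 0 in shTFAM 1 to 3. These counts lay under the filter and gave no fold change in the main run. Without a filter the log2 fold change of PFKFB1 was 1.96 (SE 1.94, edgeR adjusted p 0.569).

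In the PFKFB pool the share of PFKFB4 was higher in every shTFAM library than in any shCtrl library. PFKFB4 took 27.9, 31.5 and 54.7% of the summed PFKFB level in shCtrl 1 to 3 and 66.5, 72.0 and 69.4% in shTFAM 1 to 3. Its share was 38.0 ± 14.5% and 69.3 ± 2.76% (SD, n = 3 per group; by exact permutation, two-sided, p 0.1, which is the lowest it allows). PFKFB3 was the leading isozyme in shCtrl 1 and shCtrl 2 with 42.0 and 39.3%, and PFKFB4 in shCtrl 3 and in all shTFAM libraries. The PFKFB3 share was 33.1 ± 13.1% in shCtrl and 15.4 ± 5.47% in shTFAM, with overlapping groups (SD, n = 3 per group; by exact permutation, two-sided, p 0.2). PFKFB2 went from 28.6 ± 1.903 to 14.9 ± 5.49% of the pool although its own level rose (SD, n = 3 per group; by exact permutation, two-sided, p 0.1). The summed level of the 4 genes was 9.54 ± 0.466 FPKM in shCtrl and 33.7 ± 12.7 in shTFAM (SD, n = 3 per group; by exact permutation, two-sided, p 0.1), 3.54 times as high.

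**Figure D3:**
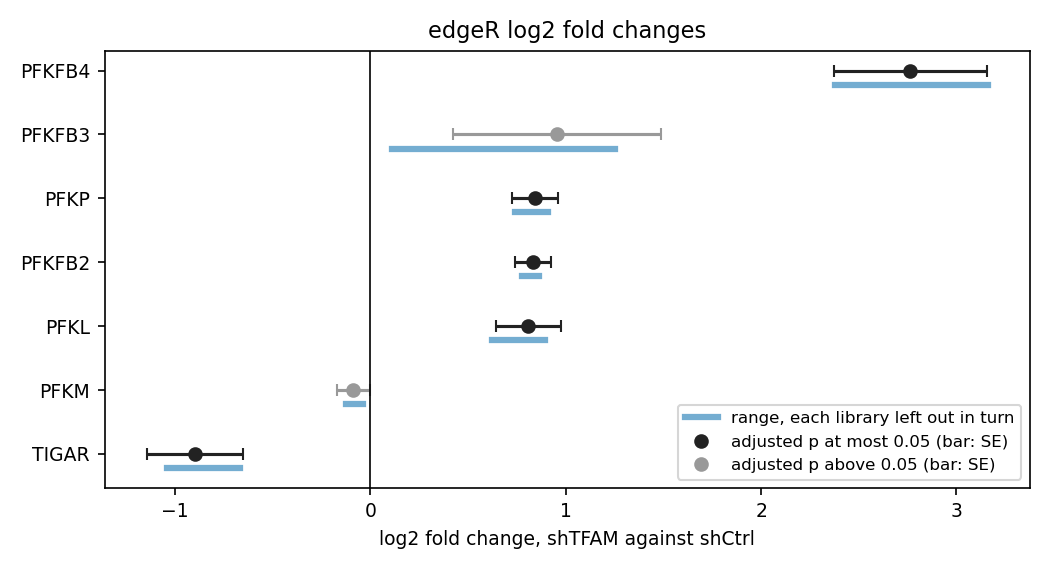
Log2 fold changes of the 7 tested genes, shTFAM against shCtrl, from edgeR. Points with bars are estimates with SE, black for adjusted p at most 0.05 and grey above it, and blue lines span the values with each library left out in turn. The span of PFKFB3 runs from 0.11 to 1.25, and that of TIGAR from -1.04 to -0.67.

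Of the opposing enzymes, TIGAR fell and FBP1 was not detected. TIGAR (ENSG00000078237, chromosome 12, 4307763 to 4360028, plus strand) was at 3.10, 2.95 and 4.05 FPKM in shCtrl 1 to 3 and at 2.06, 2.01 and 1.08 FPKM in shTFAM 1 to 3. Every shTFAM library was below every shCtrl library. The fitted change was -0.90 on the log2 scale (SE 0.247; edgeR, adjusted p of 0.0468), 1.86-fold lower. The call lay near the threshold. It ended without any 1 of the 6 libraries (edgeR adjusted p 0.0612 to 0.117). With shCtrl 3 and shTFAM 3 left out together the change was smaller (-0.52, SE 0.0972, edgeR adjusted p 0.0382). Those were the highest shCtrl and the lowest shTFAM library for TIGAR, so the smaller SE of that run does not strengthen the call. The row AC008012 covers all of TIGAR on the same strand and had 0 counts in every library.

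FBP1 (ENSG00000165140, chromosome 9, 94603133 to 94640137, minus strand) had 0 counts in all 6 libraries. A floor of 3 counts allows up to 0.0491 to 0.0693 CPM (counts scaled to library total), depending on the library, for counting error only. Its relative FBP2 was at 0 as well. No ratio of phosphofructokinase to FBP1 could be formed.

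PFKFB4 and TIGAR, whose products act in opposite directions on fructose 2,6-bisphosphate where the PFKFB4 kinase is active, stood at about the same level in shCtrl and apart in shTFAM. The ratio of PFKFB4 to TIGAR FPKM was 0.828, 0.995 and 1.36 in shCtrl 1 to 3 and 8.07, 9.96 and 31.0 in shTFAM 1 to 3. The summed PFKFB level was 2.97, 3.16 and 2.48 times that of TIGAR in shCtrl 1 to 3 and 12.1, 13.8 and 44.7 times in shTFAM 1 to 3. On the log2 scale this ratio was 1.51 ± 0.180 and 4.29 ± 1.03 (SD, n = 3 per group; by exact permutation, two-sided, p 0.1, which is the lowest it allows). The groups did not overlap, and shTFAM 3 stood far above the other shTFAM libraries.

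**Figure D4:**
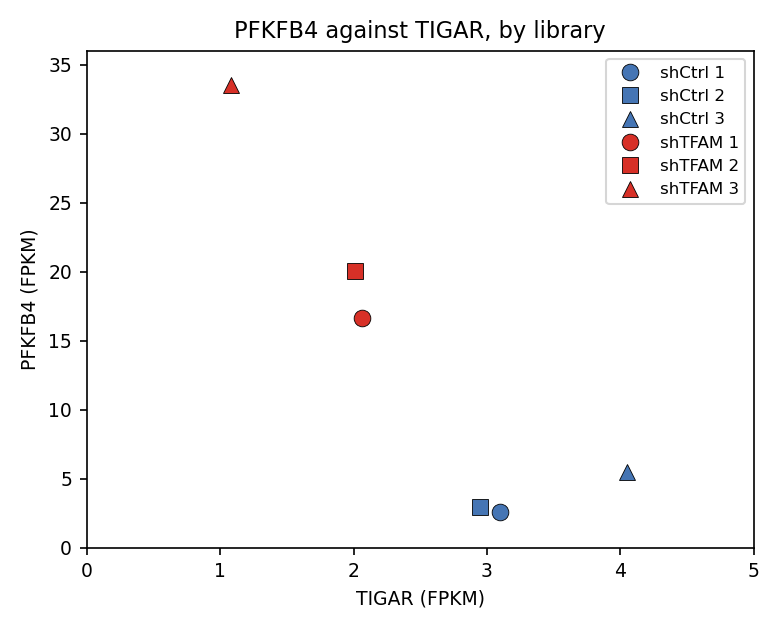
PFKFB4 against TIGAR level by library, both in FPKM on linear axes. The 3 shCtrl libraries (blue) sit at 2.95 to 4.05 FPKM TIGAR and 2.57 to 5.51 FPKM PFKFB4. The shTFAM libraries (red) sit at 1.08 to 2.06 and 16.6 to 33.5, with shTFAM 3 at the extreme of both.

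Placed in 1 order by level, the 7 tested genes formed a high and a low tier in shCtrl, with PFKFB1 and FBP1 below both. PFKP, PFKM and PFKL had ranges that did not overlap, whereas the ranges of PFKFB4 (mean 3.67 FPKM), PFKFB3 (3.12) and PFKFB2 (2.72) overlapped one another, and TIGAR (3.37) overlapped PFKFB4 and PFKFB3 but not PFKFB2. In shTFAM PFKFB4 at 23.4 ± 8.93 FPKM overlapped PFKM at 25.3 ± 1.58 (SD, n = 3 each) and PFKL. PFKFB3 (5.63) and PFKFB2 (4.58) overlapped each other further down, and TIGAR (1.72) was below both in every library. The groups did not overlap in CPM for 6 of the 7 tested genes, beside 42.2% of tested rows.

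The steps of glycolysis before and after phosphofructokinase mostly rose too. Of 15 tested genes of the other steps, 12 rose, the lactate dehydrogenase subunit LDHB fell (-0.45, edgeR adjusted p 0.0268) and 2 did not pass. Over all tested rows 11.3% rose and 6.59% fell. The list had a median log2 fold change of 0.83, beside -0.02 over all tested rows. With shCtrl 3 and shTFAM 3 left out, 11 rose, and without shCtrl 1 or without shCtrl 2 the count was 7. HK2, the inducible hexokinase, was at 16.0, 16.7 and 19.1 FPKM in shCtrl 1 to 3 and at 75.6, 90.6 and 168 in shTFAM 1 to 3 (log2 fold change 2.79, SE 0.322 with edgeR, adjusted p of 0.00354). ENO2, the neuronal enolase, rose by 2.58 on the log2 scale (edgeR adjusted p 0.00617), the phosphoglycerate kinase PGK1 by 1.79 (edgeR adjusted p 0.00394) and the aldolase ALDOC by 1.36 (edgeR adjusted p 0.00588). The PFKFB4 difference was thus of the size of those of HK2 and ENO2, and those of PFKP and PFKL were near the list's median.

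**Figure D5:**
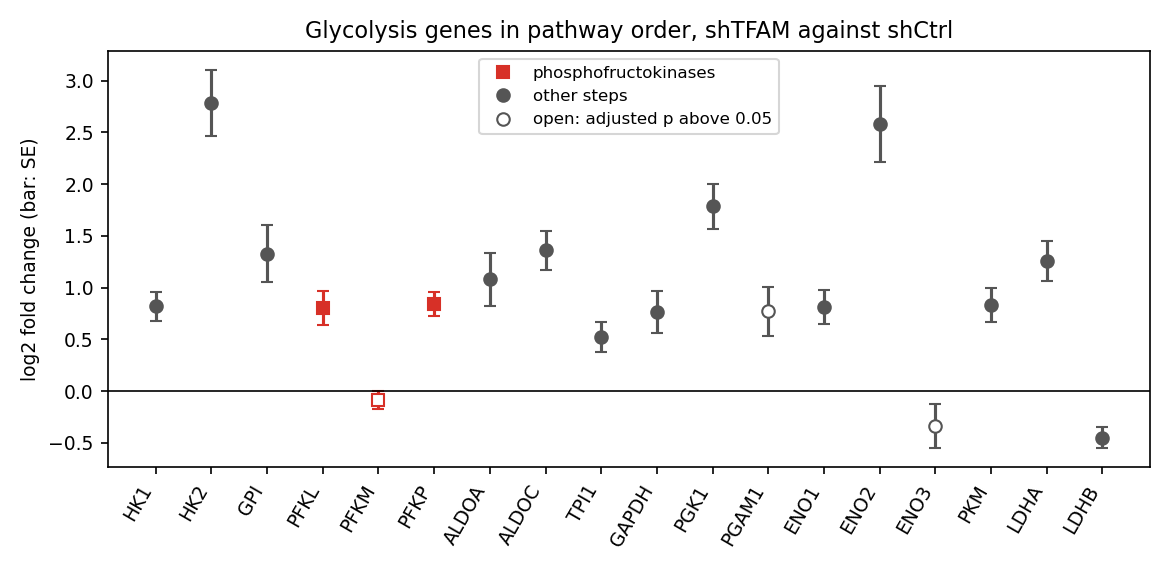
Log2 fold changes with SE of the tested glycolysis genes in pathway order, shTFAM against shCtrl. Red squares are phosphofructokinases, grey circles other steps, and open symbols have an adjusted p above 0.05. PFKL and PFKP lie at 0.81 and 0.84, PFKM at -0.09, and HK2 at 2.79 and ENO2 at 2.58 are the highest.

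Genes of the routes that branch off or run backwards gave 0 or 1 call per list, too few genes to set apart from the 17.9% called over all tested rows. Of 4 tested gluconeogenesis genes none passed in edgeR, in DESeq2 or in limma (1 higher and 1 lower at an unadjusted p under 0.05 in edgeR), with pyruvate carboxylase PC at 16.9 ± 2.95 and 21.4 ± 2.83 FPKM and the mitochondrial PEP carboxykinase PCK2 at 16.1 ± 9.11 and 9.71 ± 3.39 (SD, n = 3 each). G6PC, glucose-6-phosphatase of liver, was at 0 in all libraries. Of 7 tested genes of the pentose phosphate pathway, which TIGAR is known to favour, the epimerase RPE fell from 7.18 ± 1.13 to 4.22 ± 0.131 FPKM (SD, n = 3 each; a fitted log2 fold change of -0.68, SE 0.143 with edgeR, adjusted p of 0.0213) and 6 did not pass. DESeq2 and limma each called 2 lower, RPE and the isomerase RPIA (-0.47 and adjusted p 0.0767 in edgeR), and with shCtrl 3 and shTFAM 3 left out edgeR called 0 (RPE -0.75, edgeR adjusted p 0.0587). Of 4 tested genes of fructose and polyol metabolism none passed in edgeR, DESeq2 or limma (1 higher at an unadjusted p under 0.05 in edgeR). The most abundant was the aldose reductase AKR1B1, at 29.8 ± 2.03 and 34.9 ± 3.74 FPKM, and the sorbitol dehydrogenase SORD stood at 4.85 ± 0.856 and 4.27 ± 0.857 (SD, n = 3 each).

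Of 12 genes of kinases that phosphorylate PFKFB enzymes, subunits of AMP-activated kinase included, 2 rose and 10 did not pass, near the 11.3% of all tested rows that rose. AKT1 was at 6.58 ± 0.209 FPKM in shCtrl, against 8.37 ± 1.304 in shTFAM (SD, n = 3 each; a fitted log2 fold change of 0.42, SE 0.114 with edgeR, adjusted p of 0.0432). PRKAG2, a regulatory AMP-activated kinase subunit, was at 0.373 ± 0.0638 and 0.644 ± 0.126 FPKM (SD, n = 3 each; a fitted log2 fold change of 0.87, SE 0.217 with edgeR, adjusted p of 0.0356). PRKAG2 passed the filter on low levels only through its shTFAM libraries. Both calls were weak, AKT1 passing in 5 of 17 alternatives and PRKAG2 in 6 of 16. Of 5 tested relatives of TIGAR in the phosphoglycerate mutase group none passed in edgeR (2 higher and 2 lower at an unadjusted p under 0.05), while DESeq2 called 2 higher and 1 lower and limma 1 lower. PGAM5, a mitochondrial member, was at 24.3 ± 2.31 and 12.6 ± 4.50 FPKM (SD, n = 3 each; a fitted log2 fold change of -0.86, edgeR adjusted p 0.0518), and PGAM1, the glycolytic mutase, at 171 ± 50.1 and 274 ± 52.1 (SD, n = 3 each; 0.77, edgeR adjusted p 0.0613).

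Rows with the most similar profile were found for each gene that changed, by the root mean square distance of log2 CPM, centred over the 6 libraries. Only tested rows were ranked, leaving out those without a symbol and those whose symbol has a dot, -AS or a LINC prefix. All points share the same libraries, so the distances are descriptions. Nearest to PFKFB4 were SLITRK6 (distance 0.116), DCN (0.183), a proteoglycan gene that is also in the fibroblast list, and CA9 (0.199), a hypoxia-inducible carbonic anhydrase. DCN was at only 0.158 to 0.284 FPKM in shCtrl and was tested only through its shTFAM libraries. Nearest to PFKP were SEMA3C (0.0389), the row AL671277 (0.0430) and AGRN (0.0573), and nearest to PFKL were PNPLA6 (0.0425), SNAPC3 (0.0498) and GRAMD4 (0.0583). PFKFB2 lay nearest to C2CD2 (0.0438), MADD (0.0482) and TNS4 (0.0568). TIGAR lay nearest to the row AC083899 (0.0468), NOP16 (0.0647) and FAM98A (0.0697). None of the 9 genes was among the 3 nearest of another.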

How the data were processed

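Poly(A) RNA of 6 SNU-368 libraries was sequenced as strand-marked, paired reads, per the labels' protocols. Tools listed in the submitters' processing notes, without roles, were StringTie 1.3.4d, HISAT2 2.0.4, cutadapt 1.9 and Bowtie 0.12.2. The same notes list hg38 and mm8 as builds. Row coordinates match human hg38. The counting tool, annotation and strand setting are not given in the sources used here. Whole-number gene counts and FPKM for each library were deposited by the authors in 1 table, per the file headers. Over 10790 rows of more than 200 counts, the ratio of FPKM to count differed between libraries by 1 factor for all genes (SD at most 0.00278 log2 units).

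Groups follow the treatment label. Rows with a mean FPKM of at least 0.5 (14708 of 60612) were tested with edgeR's quasi-likelihood test on the counts (TMM factors, trended dispersion, two-sided, Benjamini-Hochberg over all tested rows, threshold 0.05). Each SE was computed as the fitted change over the square root of its F statistic. Shares and ratios of FPKM, with rows of 0 counts set to 0, were compared by two-sided exact permutation of libraries. The script was tested on simulated data. Replicates were compared before averaging, and no pair agreed within sampling noise (lowest chi-square per degree of freedom 42.6). Genes were named by a rule: the 9 genes, TFAM, up to 4 called genes per pathway list by smallest p (2 by abundance where none was called), and the 3 nearest rows of each gene that changed. LDHB, KRT8, KRT18 and other marker genes, FBP2 and overlapping rows stand outside it. A marker result is not reported here. The genes and lists were chosen with earlier results of these data known. Alternatives were DESeq2, limma on log2(FPKM + 1) or + 0.1, other filters, other scalings, rows summed per symbol and libraries left out; those for the other glycolysis list, the summed levels and the PFKFB4 to TIGAR ratio were added after seeing the data. Tools were DESeq2 1.42.0, edgeR 4.0.16 and limma 3.58.1 in R 4.3.3, with Python 3.11.15, scipy 1.17.1 and matplotlib 3.10.9.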

Additional observations from a re-analysis of the deposited data

How the results depend on the processing

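Under the 17 alternatives, 3 or 4 of these genes were called higher, and the directions of PFKP, PFKL, PFKFB2, PFKFB4, PFKM and TIGAR held wherever a value was given; rows of at least 5 FPKM left out PFKFB2, PFKFB3 and TIGAR. PFKP, PFKFB2 and PFKFB4 passed in each alternative that tested them. The count of lower genes, 1 by edgeR, was 0 without a filter (TIGAR -0.90, edgeR adjusted p 0.0678), with edgeR's own filter (-0.89, edgeR adjusted p 0.0525) and with rows of at least 5 FPKM (0, TIGAR untested). It was 0 to 0 with each library left out, where TIGAR ranged from -1.04 to -0.67. DESeq2 called TIGAR lower (DESeq2 adjusted p 0.00351). With each library left out, PFKL ranged from 0.62 to 0.90. PFKFB3 reversed to -0.16 with shCtrl 3 and shTFAM 3 left out; the cause was not tested. Over all rows, 2630 were called by edgeR and 1148 to 2065 with each library left out. Of the other glycolysis genes, 7 to 12 were called higher with each library left out.

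The PFKFB1 share, 0.110 percentage points higher in shTFAM from 10 to 33 counts at most, reversed to -0.576 with 0.1 FPKM added to each row and ranged from -0.198 to 0.367 with each library left out. The other shares and ratios kept their direction, also on raw counts. The median over tested rows was -0.02 (log2) with TMM factors, -0.09 with library totals and no TMM, and -0.15 with totals outside mtDNA and no TMM. The last of these gave 0.71 for PFKP, 2.63 for PFKFB4 and -1.02 for TIGAR. The planned ratio of phosphofructokinase to FBP1 was not run, as FBP1 had 0 counts. No paired analysis was possible because the titles number the 6 libraries in a single series and share no numbers between groups.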
